A study of Mus musculus with 8 samples.

Results

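Macrophages of the mouse heart that carried Lpl or Gdf15 transcripts were described in single-cell RNA sequencing libraries of sham-operated hearts and of hearts subjected to ischemia–reperfusion (IR). Lpl encodes lipoprotein lipase, which releases fatty acids from triglyceride-rich lipoproteins, and Gdf15 encodes a secreted stress cytokine of the transforming growth factor-beta superfamily. Members were chosen by measured values. A barcode was kept with at least 200 genes and at most 30% mitochondrial unique molecular identifiers (UMIs, which count captured RNA molecules), and was called C1q-gated when C1qa, C1qb and C1qc, the complement C1q subunits that mark heart macrophages, together made up at least 0.2% of its UMIs. Barcodes with S100a8 and S100a9 at 1% or more, with Dcn and Col3a1 at 0.15% or more, or with more than 1 UMI of Cd79a and Cd3e were left out. Of the C1q-gated barcodes, members had Lpl and Gdf15 at 0.1% of UMIs or more, and the other C1q-gated barcodes, which served as the comparison, had less. The gate found 553 members among 20159 barcodes, 140 in the sham library and 413 in the IR library.

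Male C57BL/6 mice had the left anterior descending coronary artery tied for 30 min and then reopened, and the sham group went through the same surgery without the tie. The records list 4 samples per condition, each pooled from 3 hearts, with the sham samples labelled 0 h and the IR samples 6 h, whereas the methods place both groups at 6 h after surgery. Heart tissue was dissociated enzymatically and libraries were made with the 10× 3′ kit, version 2. No barcode names its sample, so each condition was 1 library without replicates: no test, p value or standard error is given, and every interval below is a 95% interval that covers counting error only.

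Resident macrophages of the heart clear dying cells and debris, and after ischemia they are joined by macrophages that derive from blood monocytes. Macrophages that take up lipid express the fatty acid receptor Cd36 and coat their lipid droplets with Plin2, and those that take up heme break it down with heme oxygenase, encoded by Hmox1. Gdf15 is known as a target of p53 and of the integrated stress response, in which Atf4 is the leading transcription factor, and the factor NRF2 drives the genes of glutathione and thioredoxin metabolism.

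Members made up 4.16% (3.51 to 4.89) of the 3368 C1q-gated barcodes of the sham library and 39.9% (36.9 to 43.0) of the 1034 of the IR library. The 2 libraries reached the gate through different genes. In sham, 121 of the 140 members (86.4%) had Gdf15 at 0.1% of UMIs or more and 21 (15%) had Lpl at that level. In IR, 345 of the 413 members (83.5%) had Lpl at that level and 100 (24.2%) had Gdf15. Both genes were past it in 5 sham and 45 IR members, and 3 sham and 13 IR members passed only by the sum of both genes. As a share of all C1q-gated barcodes, those high in Lpl were 0.624% (0.386 to 0.952) in sham and 33.4% (30.5 to 36.3) in IR, and those high in Gdf15 were 3.59% (2.99 to 4.28) and 9.67% (7.94 to 11.6). Within IR, 45% (35.0 to 55.3) of the barcodes high in Gdf15 were also high in Lpl, against 32.1% (29.1 to 35.2) of those not high in Gdf15. Barcodes high in only 1 of the 2 genes are called Gdf15-high only (116 in sham, 55 in IR) and Lpl-high only (16 in sham, 300 in IR).

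**Figure D1:**
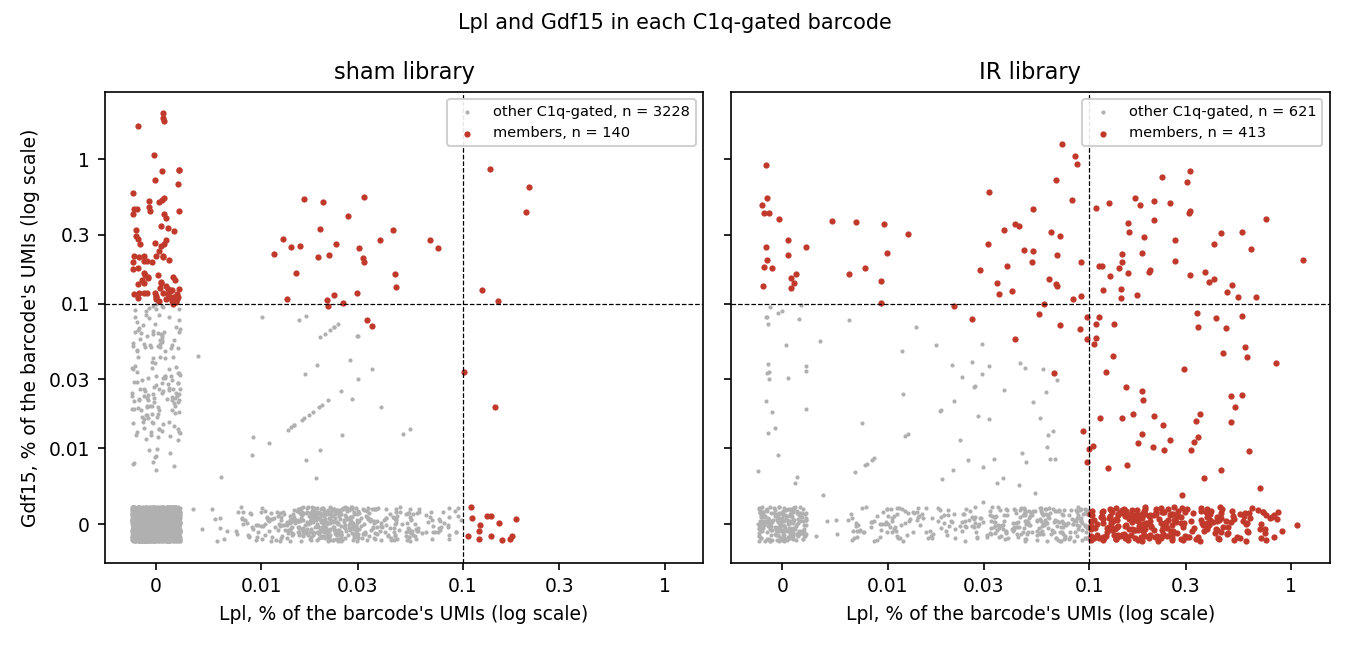
Each point is a C1q-gated barcode, with Lpl on the x axis and Gdf15 on the y axis, both in percent of its UMIs on a log scale with barcodes at 0 placed at the left or lower edge. Members (red, n = 140 in sham and n = 413 in IR) lie mainly along the Gdf15 axis in sham and along the Lpl axis in IR.

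The gate had no gap at its threshold. Lpl and Gdf15 together made up 0.08 to 0.1% of UMIs in 36 sham and 57 IR barcodes just outside it, with a median of 4 and 8 UMIs, and 0.1 to 0.12% in 28 sham and 32 IR barcodes just inside it, with a median of 6 and 9.5 UMIs. The median member had 0.195% in sham (0.1 to 2.07%) and 0.252% in IR (0.1 to 1.34%). As sums over all barcodes of a class, scaled to 1000000 UMIs (CPM), Lpl was at 256 in sham members and 2495 in IR members, against 53.7 and 254 in the other C1q-gated barcodes. Gdf15 was at 2515 and 809, against 25.8 and 40.9. These values follow from the gate and are given as a description. Lpl and Gdf15 lie on chromosome 8 of GRCm38.p6, at chr8:68880491-68907448 on the plus strand and chr8:70629393-70632456 on the minus strand, and both are protein coding.

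The sham library held 58653308 UMIs in 11620 barcodes and the IR library 75033226 in 8539. The median member had 4748.5 UMIs in sham and 9890 in IR, close to the other C1q-gated barcodes of the same library (4793 and 9452). More than 2500 genes, the upper limit that the methods state, were found in 16 of the 140 sham members and 241 of the 413 IR members. Barcode sequences occurring in both libraries numbered 30, of which 1 was a sham member and 5 were IR members. In a level summed over a class, more expressing cells and more RNA per cell cannot be told apart.

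The macrophage identity of the members was clear in both libraries. Csf1r, the receptor for colony-stimulating factor 1, had 666 CPM in sham and 534 in IR members against 823 and 623 in the other C1q-gated barcodes, and Adgre1, which encodes F4/80, had 292 and 205 against 307 and 212. Of the marker genes of the working label, Cd36 and Hmox1 were higher in IR members than in sham members and than in the other IR barcodes. In sham members Hmox1 had 420 CPM against 274, and Cd36 had 275 against 141, with 29.6% of its UMIs in 1 barcode. The sham members came from hearts without ischemia, so the members are called by their gate rather than by an injury state: Lpl/Gdf15-gated macrophages.

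Cd36 set IR members apart from the other macrophages of the same library. Its level was 1128 CPM in members and 471 in the other C1q-gated barcodes, a log2 ratio of 1.26 (1.19 to 1.33), and 390 of the 413 members had a UMI of it. Both arms of the gate shared this level, with 934 CPM in Gdf15-high only and 1180 in Lpl-high only barcodes. Barcodes of at least 2000 UMIs were thinned to 2000, and those with fewer were left out of every thinned share. Unthinned shares cover all barcodes of a class. Left out in IR were 20 of 413 members, 59 of 621 others and 38 of 769 B cells. In sham they were 12 of 140 members, 141 of 3228 others and 477 of 1397 B cells. Thinned, 78.9% of IR members had a Cd36 UMI (94.4% unthinned) against 49.3% (78.9% unthinned) of the other C1q-gated barcodes. In IR B cells, with a median of 3487 UMIs, the share was 2.46% (5.07% unthinned). In sham the thinned shares were 27.3% in members (46.4% unthinned), 19.6% in the others (36.1% unthinned) and 2.61% in B cells (3.65% unthinned). Gdf15-high only barcodes of sham had 141 CPM of Cd36, the same as the 141 CPM of the other C1q-gated barcodes (log2 ratio 0.01, −0.31 to 0.31). The 16 Lpl-high only barcodes of sham had 1152 CPM, of which 1 barcode held 67.7%. In a clustering of all C1q-gated barcodes, sham cluster 2 held no Lpl-high only member, and its members had 195 CPM against 85.4 (1.19, 0.61 to 1.73), while the ratio in cluster 4 was 0.13 (−0.73 to 0.89) and in cluster 6 it was −0.25 (−0.93 to 0.36). The 11 endothelial marker genes, from cells that also express Cd36, summed to 2415 CPM in these 16 barcodes and 23.5 CPM in the Gdf15-high only ones, where Cdh5, Kdr, Emcn and Esam were at 0. Without barcodes that had 0.2% or more of endothelial and mural genes, the sham Cd36 ratio of members was 0.58 (0.33 to 0.82). It was 0.97 (0.76 to 1.17) with them. What part endothelial RNA had in the sham Cd36 level was not tested.

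Igf1, a growth factor of resident macrophages that acts on cardiomyocytes, was higher in members of both libraries. It had 212 CPM in sham members against 102 (log2 ratio 1.06, 0.82 to 1.29) and 294 CPM in IR members against 129 (1.19, 1.06 to 1.32). The barcode with most Igf1 UMIs held 5.49% of them in sham members and 2.22% in IR members. Plin2, the lipid droplet coat protein, had 403 against 194 CPM in sham (1.06, 0.89 to 1.23) and 1340 against 964 in IR (0.48, 0.42 to 0.53). The lysosomal acid lipase Lipa had 136 against 86.1 CPM in sham and 203 against 109 in IR, the tetraspanin Cd9 had 368 against 192 and 635 against 334, and the inflammatory cytokine Tnf had 525 against 298 and 971 against 532. Other genes that were higher in both libraries were Plk2 (log2 ratio 1.40 in sham and 0.96 in IR), a kinase of the p53 response, the C-type lectin Clec4n (1.22 and 0.89), the transcriptional inhibitor Id2 (1.19 and 0.86), the survival gene Bcl2a1a (0.76 and 0.87) and the cysteine protease inhibitor Cstb (0.88 and 0.67). Genes lower in both included the monocyte gene Plac8 (−1.28 and −3.54), Ms4a6b (−0.82 and −0.93), Tmsb10 (−0.67 and −1.09), Lst1 (−0.88 and −0.63), Pld4 (−0.91 and −0.61) and Cst3 (−0.42 and −0.46).

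**Figure D2:**
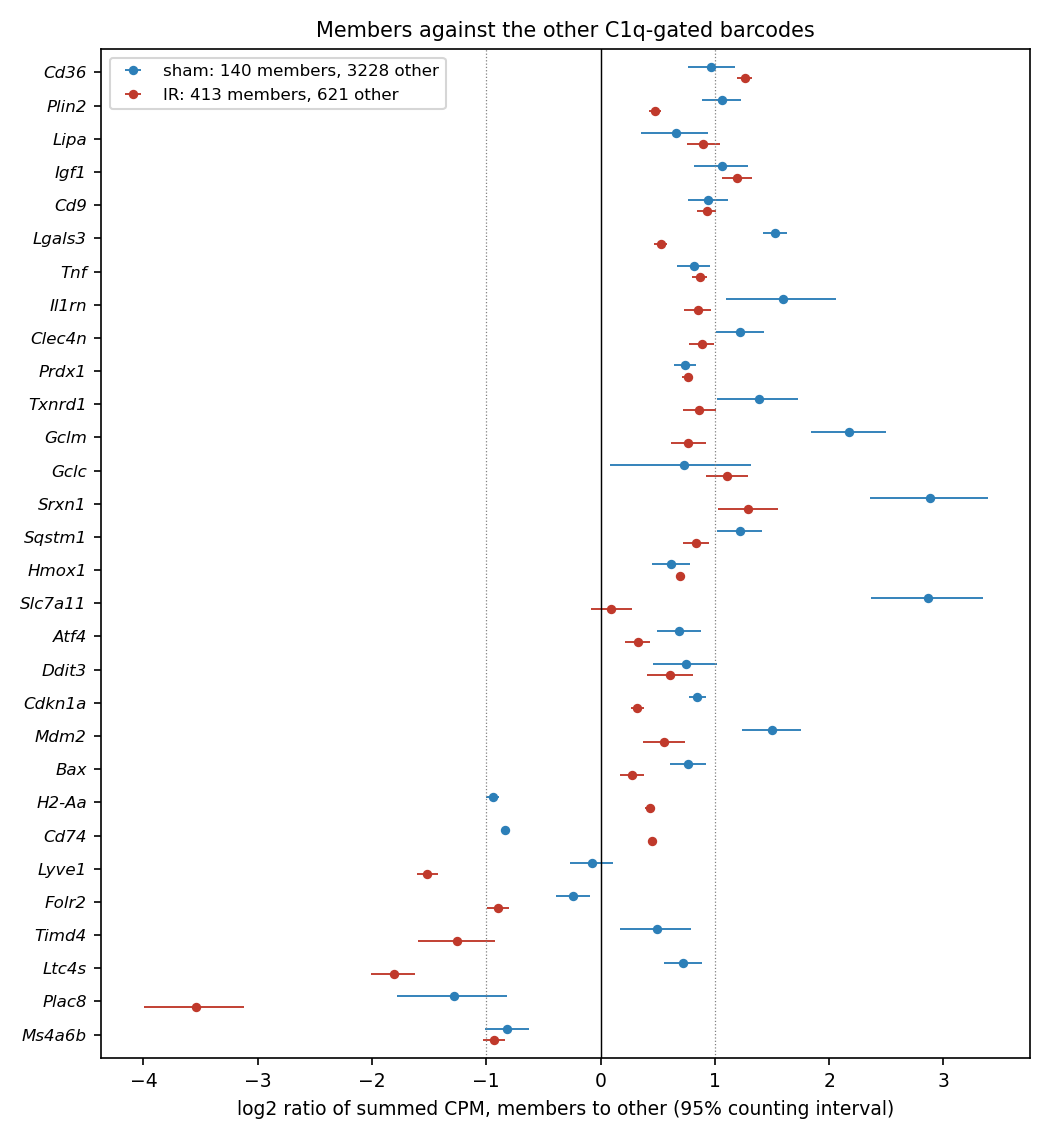
Log2 ratio of summed CPM in members to the other C1q-gated barcodes (x axis) for 30 genes (y axis) in the sham (blue) and IR (red) libraries, with 95% counting intervals. Cd36, Igf1, Cd9, Tnf and the NRF2 targets lie right of 0 in both libraries, and H2-Aa and Cd74 lie left of 0 in sham and right of 0 in IR.

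Over all genes with a mean of at least 10 CPM in a comparison, 192 of 7029 were at least 2-fold higher in sham members than in the other sham barcodes (2.73%) and 97 were at least 2-fold lower (1.38%). In IR, 52 of 7070 were at least 2-fold higher (0.736%) and 107 lower (1.51%). Genes that the gate used were left out of these counts. Many of the sham values rested on single barcodes: without the barcode with most UMIs of each gene, 98 of the 192 remained at least 2-fold higher, while 49 of the 52 in IR did. The values of Spp1 (94.1% of the sham member UMIs in 1 barcode), Marco (96.0%) and Fabp4 (83.8%) were of this kind, and Cxcl9 and Gpnmb were each found in 1 sham member.

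Among 27 lipid genes tested in sham, 7 were at least 2-fold higher and none lower (median log2 ratio 0.46, against 0.06 for all genes). They were Plin2, Nceh1, which hydrolyzes cholesterol esters (1.02), Ppard, a nuclear receptor for fatty acids (1.06), and the fatty acid carrier Fabp5 (1.40), together with Fabp4, Mgll and Gpihbp1, whose sham values turned or could not be given without 1 barcode. In IR, 3 of 28 were higher (Cd36, Fabp4 and Pparg) and 1 was lower, Fabp5 (−2.45), with a median of 0.06 against −0.05 for all genes. The IR ratio of Fabp4 was 1.48, with 33.9% of its UMIs in 1 barcode, and it was 0.22 (−0.20 to 0.64) with at most 2500 genes per barcode. Thinned to 2000 UMIs, 11.7% of IR members had a Fabp4 UMI (28.6% unthinned), 12.6% of the others (32.0% unthinned) and 9.17% of B cells (14.7% unthinned). Pparg, the nuclear receptor that regulates Cd36, was at 17.2 CPM in IR members against 7.31 (1.24, 0.68 to 1.80), with UMIs in 64 of the 413 members.

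Genes of glutathione, thioredoxin and iron metabolism were taken from a list of NRF2 targets and heme handling genes. Of 29 tested in sham, 7 were at least 2-fold higher in members and none lower (median 0.62), and in IR 3 were higher and 1 lower (median 0.32). Srxn1, the sulfiredoxin that repairs peroxiredoxins, had 56.9 CPM in sham members against 7.7 (2.88, 2.36 to 3.39) and 75.4 in IR members against 30.9 (1.29, 1.03 to 1.55). Txnrd1, thioredoxin reductase, had 96.9 against 37.1 (1.38) and 201 against 110 (0.86). Sqstm1, the autophagy adaptor p62, had 304 against 130 (1.22) and 332 against 186 (0.83), and the peroxiredoxin Prdx1 had 1239 against 743 (0.74) and 1815 against 1071 (0.76). The ferritin chains Fth1 and Ftl1 were higher by less: 0.34 and 0.58 in sham and 0.52 and 0.35 in IR. Gclm, a subunit of the first enzyme of glutathione synthesis, had 120 against 26.6 CPM in sham (2.18), with 45.2% of its UMIs in 1 barcode and a log2 ratio of 1.34 without it, and 175 against 103 in IR (0.77). The catalytic subunit Gclc had 143 against 66.6 in IR (1.11, 0.92 to 1.29). Within IR cluster 3 members and others were close in Srxn1 (−0.01, −0.97 to 0.88), Sqstm1 (−0.04, −0.30 to 0.21) and Gclm (0.16, −0.22 to 0.53). With members set by Lpl alone, the IR ratio was 0.11 for Hmox1 and 0.08 for Gclm.

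The promoters of these genes were read for the core of the antioxidant response element, TGACNNNGC, to which NRF2 binds, and for the C/EBP–ATF response element of ATF4 targets, TGATGNAAN, on both strands in the 250 bases before each transcript start in the RefSeq annotation of GRCm38.p6. The first stood in 8 of 25 genes of the NRF2 list (32%) and in 11.5% of all 27025 genes in the table, and the second in 7 of 28 genes of the ATF4 list (25%) and 3.89% of all genes. The windows of Gclm (chr3:122245307-122245556, plus strand), Prdx1 (chr4:116685349-116685598, plus strand), Txnrd1 (chr10:82858956-82859205, plus strand) and Slc7a11 (chr3:50443614-50443863, minus strand) are printed 5′ to 3′. These genes were higher in members, Slc7a11 mainly in sham, and held a match, which is in capitals. The match reads on the opposite strand in the first 3, and Slc7a11 holds the ATF4 element on each strand. Gdf15, Cd36, Igf1, Srxn1 and Sqstm1 held neither in their windows, which says only that these letters are not there. Lpl, Hmox1 and Gclc had no window to read.
Gclm: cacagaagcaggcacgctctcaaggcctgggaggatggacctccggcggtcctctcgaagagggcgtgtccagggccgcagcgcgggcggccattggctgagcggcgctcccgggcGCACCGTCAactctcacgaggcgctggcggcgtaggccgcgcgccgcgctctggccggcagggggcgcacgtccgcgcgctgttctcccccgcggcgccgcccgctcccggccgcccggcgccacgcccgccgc
Prdx1: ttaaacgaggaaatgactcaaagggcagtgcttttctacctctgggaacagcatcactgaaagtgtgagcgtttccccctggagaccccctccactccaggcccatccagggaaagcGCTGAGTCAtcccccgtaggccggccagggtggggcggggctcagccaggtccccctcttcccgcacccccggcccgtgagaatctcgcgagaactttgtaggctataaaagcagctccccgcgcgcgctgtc
Txnrd1: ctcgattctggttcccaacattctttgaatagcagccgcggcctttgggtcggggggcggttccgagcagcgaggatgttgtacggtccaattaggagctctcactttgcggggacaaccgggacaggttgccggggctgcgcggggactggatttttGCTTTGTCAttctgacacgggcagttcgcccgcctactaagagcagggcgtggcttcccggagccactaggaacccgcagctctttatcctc
Slc7a11: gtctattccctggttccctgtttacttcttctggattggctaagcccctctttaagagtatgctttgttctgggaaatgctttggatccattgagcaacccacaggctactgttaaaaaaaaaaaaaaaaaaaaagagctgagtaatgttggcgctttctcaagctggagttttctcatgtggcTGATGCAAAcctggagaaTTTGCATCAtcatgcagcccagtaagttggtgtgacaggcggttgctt

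Mdm2, Cdkn1a and Bax, which belong to the fixed list of apoptosis and survival genes and are known p53 targets, were higher in sham members. They were singled out after their values were seen. Of the 23 list genes tested in sham, 2 were at least 2-fold higher, Mdm2 and the growth arrest gene Gadd45a, and none lower (median 0.26). Mdm2, the p53 target that degrades p53, had 181 CPM against 63.9 (log2 ratio 1.5, 1.24 to 1.76) with UMIs in 65 of the 140 members and at most 5% in 1 barcode. Cdkn1a, which encodes the cell cycle inhibitor p21, had 2101 against 1168 (0.85, 0.77 to 0.92). The proapoptotic gene Bax had 460 against 271 (0.76, 0.60 to 0.92). These values held in the Gdf15-high only barcodes, with 190, 2291 and 488 CPM. In IR, the ratios were smaller, at 0.56 for Mdm2, 0.32 for Cdkn1a and 0.27 for Bax, and the difference between the libraries was not tested. Thinned to 2000 UMIs, 28.1% of sham members had a Mdm2 UMI (46.4% unthinned) against 11.3% (24.0% unthinned) of the other barcodes and 7.07% (13.8% unthinned) of B cells, with a median of 2779 UMIs. In IR, the shares were 16.3% in members (50.4% unthinned), 16.4% in the others (42.7% unthinned) and 10.3% in B cells (21.1% unthinned).

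Of 17 integrated stress response genes tested in sham, 4 were at least 2-fold higher and none lower (median 0.64): Slc7a11, the cystine carrier (2.87, with UMIs in 13 members), Sesn2, which restrains mTORC1 (1.48, in 11 members), Mthfd2 of mitochondrial folate metabolism (1.15) and the stress regulator Nupr1 (1.21). Atf4 itself had 310 CPM against 193 (0.69, 0.49 to 0.88), and Ddit3, which encodes CHOP, had 149 against 88.5 (0.75, 0.46 to 1.02). In IR none of 19 passed 2-fold (median 0.16); Atf4 had 311 against 249 CPM and Slc7a11 108 against 101, while Nupr1 was at 103 against 203 (−0.98). Atf3, the factor that the study followed, was abundant in all 4 classes, with 1442 CPM in sham members against 1117 (0.37, 0.28 to 0.46) and 1366 in IR members against 1260 (0.12, 0.07 to 0.17). None of 28 immediate-early genes and none of 19 heat shock genes passed 2-fold in sham, and in IR 1 of 30 immediate-early genes did, Egr2 (1.05).

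Lgals3, the galectin of phagocytic macrophages, had 1070 CPM in sham members against 372 (1.52, 1.42 to 1.63) and 1165 against 809 in IR (0.53). In sham, the lysosomal protease Ctsd was also higher (691 against 302, 1.19), as were the C-type lectin Clec4d (208 against 48.1, 2.11) and the gp130 cytokine Osm (99.5 against 42.5, 1.23). Trem2, the lipid-sensing receptor, had 189 against 116 CPM in sham (0.71, 0.45 to 0.95) and 190 against 187 in IR. Of 22 genes of the TREM2 and lysosomal list, 5 were at least 2-fold higher in sham (median 0.21), 1 of them Spp1. In IR, 2 of 26 were higher, the macrophage elastase Mmp12 and the integrin Itgax (47.2 against 14.6 CPM, 1.69), and 2 were lower (median 0.02). Mmp12 had 212 against 58.1 CPM (1.87, 1.69 to 2.05), with UMIs in 69 members; with at most 2500 genes per barcode the ratio was −0.33.

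MHC class II genes, which present antigen, were lower in sham members and, with no upper limit on genes per barcode, higher in IR members. In sham members, the class II chain H2-Aa had 3476 CPM against 6686 (−0.94, −1.0 to −0.89) and the invariant chain Cd74 had 9901 against 17683 (−0.84, −0.87 to −0.80). In IR members, H2-Aa had 2723 against 2023 (0.43, 0.39 to 0.47) and Cd74 had 8928 against 6537 (0.45, 0.43 to 0.47). With at most 2500 genes per barcode, the limit of the methods, the IR ratio of H2-Aa turned to −0.10 (−0.16 to −0.04). Of 11 class II genes tested, 2 were at least 2-fold lower in sham (H2-Eb1 and H2-DMa, median −0.84) and none passed 2-fold in IR (median 0.24). Within cluster 2 of the sham barcodes the H2-Aa ratio was −0.47 and within cluster 4 it was −0.73, and within clusters 3 and 5 of the IR barcodes it was 0.52 and 0.50. No gene of the list was at least 2-fold different between IR and sham members other than Ciita, the class II transactivator, lower in IR (−2.58, with UMIs in 11 IR members), whereas 7 of 11 were at least 2-fold lower in IR among the other C1q-gated barcodes.

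IR members had lower levels of several resident macrophage genes than the other IR macrophages. Lyve1, the hyaluronan receptor of resident macrophages, had 288 CPM against 822 (−1.51, −1.61 to −1.42), and the folate receptor Folr2 had 263 against 489 (−0.90, −1.0 to −0.80). The phosphatidylserine receptor Timd4 had 22.1 against 52.8 (−1.26), the complement receptor Vsig4 had 11.4 against 79.3 (−2.80) with UMIs in only 10 members, and the leukotriene synthase Ltc4s had 63.5 against 223 (−1.81). Of 27 resident genes 7 were at least 2-fold lower and 1 was higher, Igf1 (median −0.43). In sham, 1 of the 27 was higher, again Igf1, and none lower (median −0.08): Lyve1 had 322 against 340 CPM (−0.08, −0.27 to 0.10) and Timd4 had 121 against 86.5. Thinned to 2000 UMIs, 23.4% of IR members had a Lyve1 UMI (38.5% unthinned) against 43.1% (53.5% unthinned) of the others and 0.547% (1.17% unthinned) of B cells. The lower Lyve1 level was also found within IR cluster 3 (−1.49) and cluster 5 (−1.13). With at most 2500 genes per barcode its IR ratio was −0.79 (−1.03 to −0.54). In Lpl-high only barcodes of IR, 9 of 27 resident genes were at least 2-fold lower and 2 higher (median −0.45). Over all genes 144 of 7082 were lower and 57 higher. In Gdf15-high only barcodes 1 was lower and 1 higher (median −0.36), and over all genes 336 of 7028 were lower and 152 higher. Thinned, 19.0% of Lpl-high only (34.7% unthinned) and 37.0% of Gdf15-high only barcodes (52.7% unthinned) had a Lyve1 UMI.

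Of 24 genes of monocytes and recruited macrophages tested in IR, 11 were at least 2-fold lower in members and none higher (median −0.90). Chil3 had 31.4 CPM against 372 (−3.56, −3.83 to −3.31) and 6574 in recruited macrophages and monocytes outside the C1q gate, Plac8 had 10.9 against 127 (−3.54) and Ly6c2 had 2.56 against 27.1 (−3.41). Cluster 9, with 52 of the other IR barcodes, held 92.1% of their Chil3 UMIs. Within IR cluster 5 the ratio of Chil3 was 0.13 (−0.61 to 0.91), and within cluster 3 that of Plac8 was −0.18 (−1.80 to 1.21). In sham, 5 of 17 were higher and 5 lower (median 0.59). The lower ones included Ly6c2 (−1.71), Plac8 (−1.28) and the chemokine receptor Ccr2 (−1.10), and the higher ones were Clec4d, Thbs1, Fn1, Saa3 and F10, the last 4 with UMIs in few members. Ccr2 in IR had 112 CPM in members and 135 in the others.

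**Figure D3:**
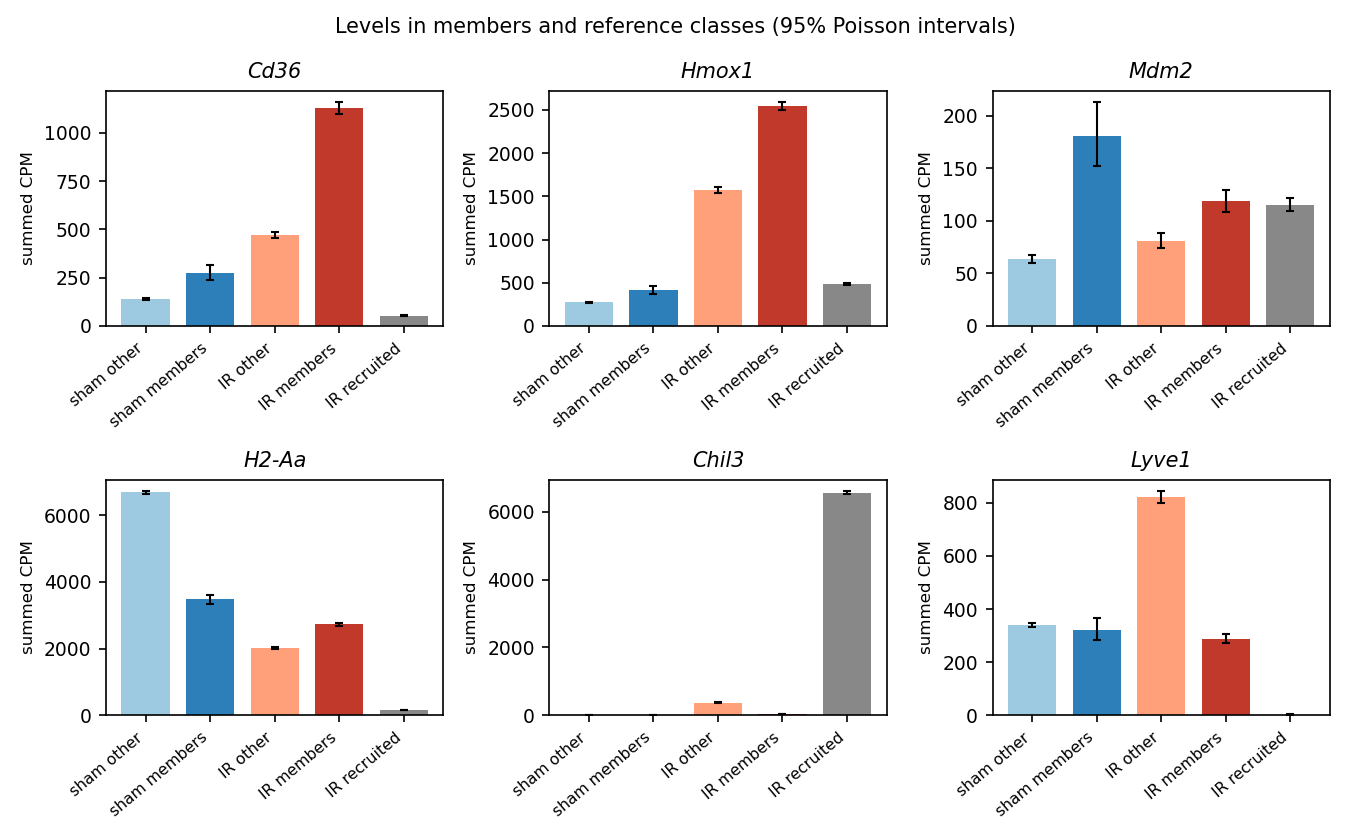
Summed CPM (y axes, from 0) of 6 genes in sham other, sham members, IR other, IR members and the IR recruited class, with 95% Poisson intervals. Cd36 and Hmox1 are highest in IR members, Mdm2 is highest in sham members, and Chil3 is at 31.4 CPM in IR members against 6574 CPM in the recruited class.

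Among 29 chemokine and cytokine genes tested in IR, 2 were at least 2-fold higher in members and none lower (median 0.39). Cxcl14 had 111 CPM against 45.5 (1.29, 1.08 to 1.51), and Il1a had 307 against 149 (1.04, 0.92 to 1.17). The monocyte attractants Ccl2 (5986 against 4588 CPM) and Ccl7 (3526 against 2420) and the neutrophil attractants Cxcl1 (940 against 559) and Cxcl2 (11342 against 7720) were higher by less than 2-fold. In sham, 7 of 28 were higher and 1 lower (median 0.36). Cxcl2 had 10589 against 5876 CPM and the anti-inflammatory cytokine Il10 had 46.5 against 12.5 (1.90, in 10 members), while Ccl12 had 770 against 1848 (−1.26). Ccl12 stood the other way in IR, at 2666 against 1608 CPM (0.73). The platelet chemokine Ppbp had 245 CPM in IR members against 69.3 (1.82), and the 5 platelet markers summed to 247 and 69.8 CPM with Tubb1 at 0 in both; platelet RNA in the Ppbp value was not tested.

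Markers of other cell types were counted in the members. In sham, 14 of 15 cardiomyocyte genes had UMIs in members (Mybpc3 was at 0) and summed to 561 CPM, against 212 in the other C1q-gated barcodes, and 5 of the 140 members had 0.2% or more of their UMIs in them. The 11 endothelial genes summed to 274 CPM in sham members against 114, and to 80.3 against 34.3 in IR. In IR members, the cardiomyocyte list summed to 49.3 CPM against 65.3 and the neutrophil list to 482 against 629. The neutrophil list held S100a8 and S100a9, which the gate limited in both classes. Leaving out barcodes with 0.2% or more of cardiomyocyte genes, or of endothelial and mural genes, turned the sign of no ratio past 2-fold among 19 genes followed, except the IR to sham ratio of Fabp4 under the endothelial and mural limit.

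Within the IR library the arms of the gate differed in many genes. Between the 300 Lpl-high only and the 55 Gdf15-high only barcodes, 267 of 6899 genes were at least 2-fold higher in the Lpl arm (3.87%) and 225 were lower (3.26%). These counts depended on single barcodes: without the barcode with most UMIs of each gene they were 518 and 133. Of the 267, 263 remained, and of the 225, 132 did. Genes of the NRF2 and iron list stood higher in the Gdf15 arm: 8 of 29 were at least 2-fold lower in the Lpl arm and none higher (median −0.53, against 0.04 for all genes). Hmox1 had 5502 CPM in Gdf15-high only, 1861 in Lpl-high only and 1571 in the other C1q-gated barcodes, and barcodes high in both genes had 3437. Prdx1 had 3892, 1404 and 1071 CPM in the same order, and Gclm 404, 120 and 103, with at most 28.2% of the Gdf15 arm's UMIs of each in 1 barcode. The iron exporter Slc40a1 had 119 and 31.6 CPM in the Gdf15 and Lpl arms, and Spic, the transcription factor of heme-handling macrophages, had 54.5 and 20.7, with 41.2% of the Gdf15 arm's UMIs in 1 of 11 barcodes.

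Interferon genes followed the same order. Of 23 tested, 9 were at least 2-fold lower in the Lpl arm and none higher (median −0.85). The antiviral gene Rsad2 had 545 CPM in the Gdf15 arm and 60.9 in the Lpl arm (log2 ratio of Lpl to Gdf15 arm −3.16), but UMIs stood in only 9 of 55 barcodes and 1 of them held 53.5%. Cxcl10, the interferon-induced chemokine, was spread wider, in 23 barcodes of the Gdf15 arm, with 1828 against 439 CPM (−2.06, −2.17 to −1.94). The EGF receptor ligand Areg had 492 against 141 CPM. In the Lpl arm, Mmp12 (223 against 78.5 CPM), Cxcl14 (133 against 48.1), the eotaxin Ccl24 (523 against 179) and Ccl7 (3777 against 1695) were higher. Fibronectin, Fn1, had 281 against 16.0 CPM and Ccl17 had 174 against 1.60, in 39 and 18 Lpl-arm barcodes, with 39.0% and 41.6% of the UMIs in 1 of them; the Gdf15 arm held 1 UMI of Ccl17. Cd36 (1180 and 934 CPM) and Igf1 (272 and 293) were close in both arms, with log2 ratios of 0.34 (0.21 to 0.47) and −0.11 (−0.34 to 0.13).

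**Figure D4:**
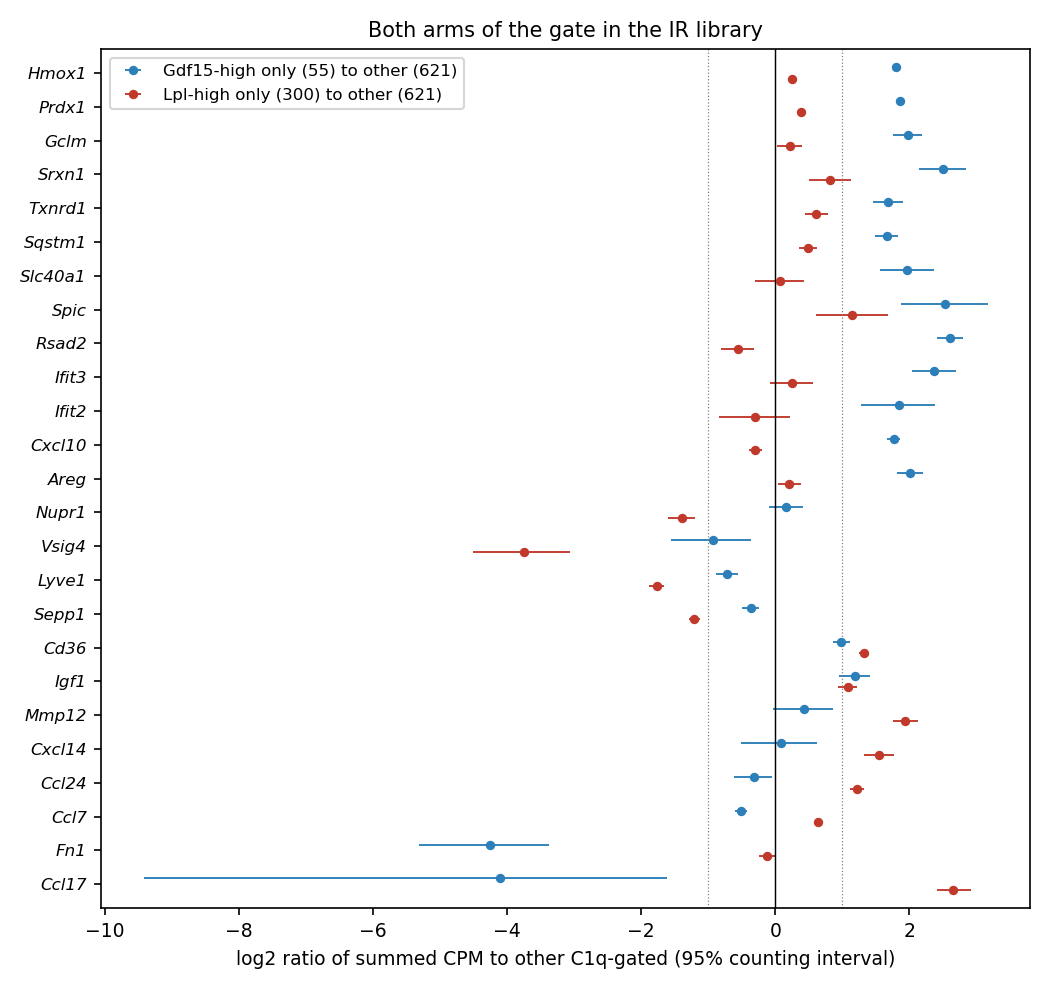
Log2 ratio of summed CPM to the 621 other C1q-gated barcodes of the IR library (x axis) for 25 genes (y axis), in Gdf15-high only (blue, n = 55) and Lpl-high only barcodes (red, n = 300), with 95% counting intervals. Hmox1, Prdx1, Gclm and the interferon genes lie further right in the Gdf15 arm, Mmp12, Cxcl14, Ccl24 and Ccl17 lie further right in the Lpl arm, and Cd36 and Igf1 lie near 1 in both.

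Between the conditions, 649 of 7067 genes were at least 2-fold higher in IR members than in sham members (9.18%) and 622 were lower (8.8%). The same contrast among the other C1q-gated barcodes gave 564 of 7131 higher (7.91%) and 351 lower (4.92%). Because the 2 sets of members were gated mainly through different genes, and each condition was 1 library, condition and library cannot be told apart here. Hmox1 had 2547 CPM in IR members and 420 in sham members (2.60, 2.44 to 2.76), and in the other C1q-gated barcodes it had 1571 and 274. The lipid droplet-associated gene Hilpda (168 against 12.9 CPM), the metalloprotease Adam8 (223 against 18.1) and Il1a (307 against 28.4) were higher in IR members. So were the EGF receptor ligand Hbegf (116 against 18.1), Fkbp5, a glucocorticoid target (117 against 11.6), and the scavenger receptor Msr1 (547 against 110). The neutrophil attractant Cxcl3 had 429 against 15.5 CPM and Arg1 151 against 7.75, the latter with 54.6% of its IR UMIs in 1 barcode.

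Interferon genes were lower in IR members: 18 of 25 were at least 2-fold lower and none higher (median −1.42), as 18 of 24 were among the other barcodes (median −1.65). Between the Gdf15-high only barcodes of IR and sham the difference was smaller, with 8 of 24 lower and 2 higher (median −0.40). Over all genes of that contrast, 731 of 6984 were lower and 740 were higher. Bst2, or tetherin, had 268 CPM in IR members and 1389 in sham members (−2.37), Irf7 had 47.5 and 238 (−2.32) and Isg15 had 164 and 530 (−1.69). Heat shock genes were mixed, with 4 of 19 higher, such as Hspa1a (1811 against 446 CPM, 2.02), and 4 lower. The class Ib gene H2-T23 (73.5 against 565 CPM), the epoxide hydrolase Ephx1 (25.8 against 149), the complement gene C4b (30.5 against 225) and Ltc4s (63.5 against 407) were lower in IR members. Among growth factor and matrix genes, 11 of 23 were higher and 3 lower (median 1.0), and among the other C1q-gated barcodes 16 of 25 were higher and 1 lower (median 1.79).

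Clustering of all 4402 C1q-gated barcodes gave 13 clusters, which were mostly of 1 library and were left unnamed. Of the IR members, 60.8% were in cluster 5, where 251 of 412 IR barcodes were members (60.9%, 56.0 to 65.7), and 33.9% were in cluster 3, where 140 of 492 were (28.5%, 24.5 to 32.7). Cluster 5 was led by Ccl17, Ppbp, Il1a, Akr1b8, Hbegf, Areg, Adam8, Srxn1, Il1rn and Ell2, and it held 41 of the 55 Gdf15-high only barcodes. Cluster 3 was led by Amica1, Fkbp5, Clec10a and Cd163. The 5 sham barcodes in cluster 5 were all members. Sham members were spread over many clusters. They made up 1.70% (0.995 to 2.71) of cluster 1, led by Ifnb1 and Ifit2, 6.89% (4.42 to 10.2) of cluster 6, led by Vsig4, and 7.45% (3.05 to 14.7) of cluster 9, and none of the 35 sham barcodes of cluster 13. Genes of the gate were left out of the clustering, and these shares are given as a description.

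**Figure D5:**
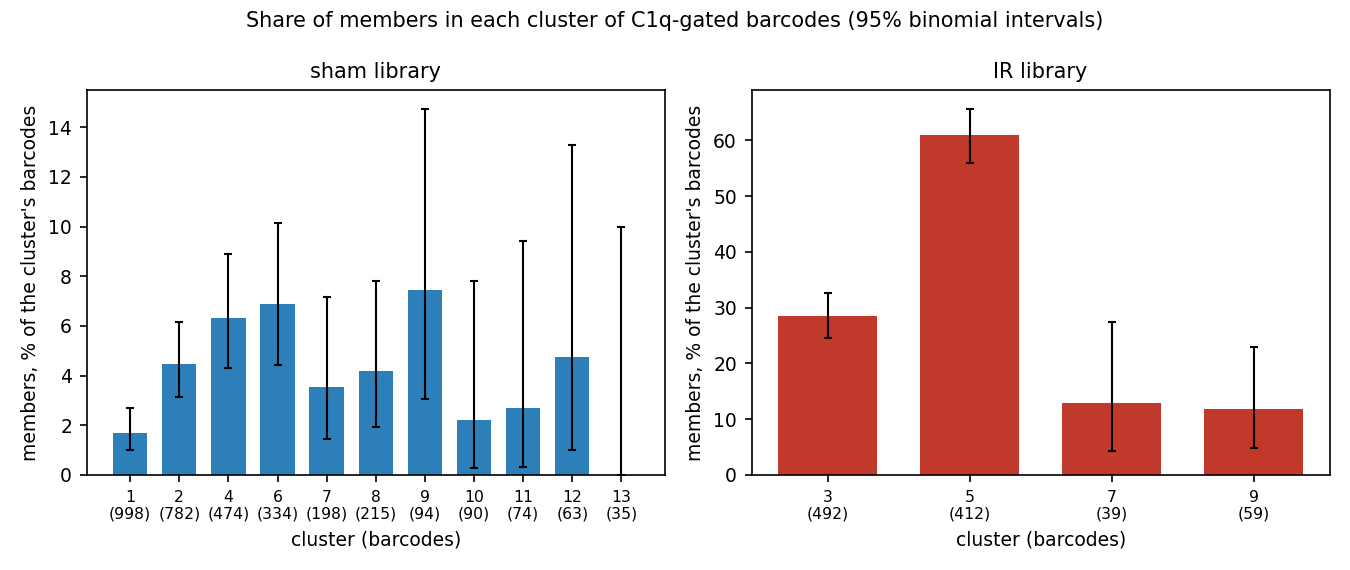
Members as a percentage of the barcodes of each cluster (y axis) with 95% binomial intervals, for clusters (x axis, with their number of barcodes) that held at least 30 barcodes of the sham (blue, left) or IR library (red, right). In IR, cluster 5 stands at 60.9% and cluster 3 at 28.5%, and in sham no plotted cluster exceeds 7.45%.

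Differences within clusters varied from cluster to cluster. Between members and other barcodes of IR cluster 5 the log2 ratio was 0.64 (0.55 to 0.73) for Cd36, 1.0 (0.82 to 1.18) for Igf1, 0.57 (0.42 to 0.72) for Sqstm1 and 0.71 (0.40 to 1.04) for Srxn1, and in IR cluster 3 it was 1.15 (1.03 to 1.28) for Cd36 and 0.91 (0.68 to 1.14) for Igf1, while Sqstm1 had −0.04 (−0.30 to 0.21) there. Within sham cluster 2 the ratio was 1.71 (1.17 to 2.22) for Mdm2, 1.88 (1.39 to 2.34) for Igf1 and 1.75 (1.55 to 1.96) for Lgals3. Sham cluster 4, all of whose 30 members were Gdf15-high only, had 1.43 (0.78 to 2.02) for Mdm2, 0.84 (0.66 to 1.02) for Cdkn1a and 1.02 (0.61 to 1.40) for Lgals3. In sham cluster 6 Igf1 was at −0.23 (−0.94 to 0.41), Mdm2 at 0.75 (−0.02 to 1.44) and Lgals3 at 1.67 (1.43 to 1.90).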

How the data were processed

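Cell suspensions from sham and IR hearts were profiled by single-cell RNA sequencing. Cell Ranger, named as version 3.1.0 in the matrix headers, was run against mm10. The deposited values are raw UMI counts for 27998 genes, with 1 matrix for each condition. No barcode names its sample, so samples were not separable. The members, gene lists and comparisons were chosen with earlier results of these data known.

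Counts were summed over the barcodes of a class and scaled to 1000000 (CPM). Log2 ratios have exact conditional binomial intervals, shares have exact Clopper–Pearson intervals and levels have exact Poisson intervals. Genes under a mean of 10 CPM in the 2 classes compared, and genes of the gate, were left out of counts. Named genes were members of the lists, the 20 genes higher and 15 lower in both libraries with the largest smaller ratio at a mean of at least 50 CPM, the 15 largest ratios in each direction between IR and sham members, or the 10 leading genes of a cluster. Doublets were not removed, and barcodes over 30000 UMIs were left out as an alternative. Other-cell classes (B cells, recruited macrophages and monocytes) were set from marker genes. Clusters were made with scanpy 1.11.5 and leidenalg 0.10.2 from 2000 variable genes, 30 components and 30 neighbors at a resolution of 0.8. Python 3.11.15, numpy 2.4.6, scipy 1.17.1 and pandas 2.3.3 were used. The ratio calculation was tested on simulated data.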

Additional observations from a re-analysis of the deposited data

Results flagged for a closer look

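Of 2212 genes compared, 4 were at least 2-fold higher in sham members and at least 2-fold lower in IR members, each against the other C1q-gated barcodes of its library, with intervals on opposite sides of 0. Whether the libraries differ was not tested, as each is 1 library. Slpi, a secreted protease inhibitor, had log2 ratios of 1.89 in sham and −3.74 in IR. Saa3, an acute-phase protein, had 3.59 and −2.26. Thbs1, the matricellular protein thrombospondin 1, had 1.43 and −1.13, and Fabp5, a fatty acid carrier, had 1.40 and −2.45. In sham the values rested on few members, 13 of 140 with a UMI of Slpi, 6 of Saa3, 12 of Thbs1 and 17 of Fabp5. Cluster 9, which held 7 sham members and 87 other sham barcodes, contained 99.0% of the Slpi UMIs of sham members and 98.7% of those of the other barcodes. For Saa3 these shares were 100% and 98.0%, for Thbs1 93.8% and 65.7%, and for Fabp5 43.5% and 23.6%. In IR, with 7 members and 52 other barcodes in cluster 9, it held 54.1% of the Slpi UMIs of members and 96.8% of those of the others. For Saa3 the IR shares were 74.6% and 87.7%, for Thbs1 77.4% and 86.6%, and for Fabp5 4.48% and 79.7%.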

How the results depend on the processing

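Gate, scaling and filter were varied in 15 alternatives, and 2 more were chosen after seeing the data (endothelial and mural genes limited, and the top barcode of each gene left out). Of 851 values of 19 named genes, 816 kept their sign, and of 448 values past 2-fold, 431 did. Member shares were 7.96% in sham and 56.0% in IR at an Lpl and Gdf15 limit of 0.05%, and 1.99% and 24.8% at 0.2%. They were 0.624% and 33.4% with Lpl alone, and with Gdf15 alone the IR share was 9.67%. With barcodes thinned to 2000 UMIs before the gate, they were 5.79% of 3215 sham and 46.0% of 955 IR barcodes. Barcodes under 2000 UMIs were left out of that gate. Counts of genes at least 2-fold higher and lower in sham members (192 and 97) were 83 and 28 at 0.05%, 346 and 311 at 0.2%, 1353 and 582 with Lpl alone, 127 and 51 with the thinned gate, 43 and 13 at a mean of at least 50 CPM, 1343 and 624 with no filter, and 98 and 274 without each gene's top barcode; the lower count was 156 at up to 2500 genes per barcode and 163 as a mean over barcodes. In IR (52 and 107) they were 115 and 223 at up to 2500 genes, 21 and 23 at 50 CPM and 589 and 1103 with no filter. Between IR and sham members (649 and 622) they were 223 and 184 at 50 CPM and 1163 and 2103 with no filter, and 1565 were lower with Lpl alone.

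Signs turned for 35 gene values, 17 of them past 2-fold and 18 not. Of the 18, IR H2-Aa was −0.10 at up to 2500 genes, and with Lpl alone the IR to sham ratios were −1.95 for Gclm and −0.97 for Prdx1. The 17 were as follows. Fabp4 in sham was −1.74 at up to 2500 genes, −0.99 at 0.2%, −1.01 with Gdf15 alone and −0.54 without its top barcode, and its IR to sham ratio was 2.27, 2.03, 1.17 and 0.87 in the same order, 0.020 as a mean over barcodes and 0.47 with endothelial and mural genes limited. At up to 2500 genes sham Chil3 was 0.089 and IR Mmp12 −0.33. Sham Fabp5 was −0.00086 at 0.2%. With Lpl alone, sham Plac8 was 0.22 and sham Chil3 0.38; with Gdf15 alone, IR Cxcl14 was −0.39. With the thinned gate the IR to sham ratio of Plac8 was 1.29. The cause of these changes was not tested. Leaving out replicates was not run and no paired analysis was possible because the barcodes name no sample.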

Other observations

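Some genes of cell division were lower in members than in the other C1q-gated barcodes, but most did not pass 2-fold. In IR, 3 of 11 proliferation genes tested were at least 2-fold lower in members and none higher (median log2 ratio −0.32): Mki67 had 6.98 CPM against 16.6 (−1.25, −1.89 to −0.65), with UMIs in 15 of the 413 members. In sham, 3 of 17 were lower, the replication genes Mcm3 (−1.71), Mcm5 (−1.07) and Mcm6 (−1.30), and Mki67 had 19.4 against 23.5 CPM, with 53.3% of its UMIs in 1 barcode.

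Hypoxia and glycolysis genes did not mark the members. None of 26 passed 2-fold in sham (median 0.05), and in IR 2 of 28 were lower, Vegfa (7.45 against 22.1 CPM) and Bnip3 (−1.10), with a median of −0.10. Hbb-bs, a hemoglobin gene, had 59.4 CPM in sham members against 236, and 205 in IR members against 343, but 1 barcode held 29.2% of the Hbb-bs UMIs of the other sham barcodes and 44.0% of those of the other IR barcodes. Without the top barcode of each class the log2 ratios were −1.58 in sham and −0.53 in IR.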
